A study of Bos taurus with 32 samples.

Results

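Of the 27607 Ensembl gene IDs counted in this study, 3 are described here, ENSBTAG00000021565, ENSBTAG00000024901 and ENSBTAG00000014834. They were chosen by their counts in these libraries, which earlier readings showed almost only in calves from embryos made in vitro. The contrast of embryo origin is therefore given as a description, with no test. The label held in every tissue for ENSBTAG00000021565 alone. ENSBTAG00000024901 was set apart by origin most clearly in the hypothalamus, and ENSBTAG00000014834 in the adrenal only.

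Each of 8 male Holstein calves gave 1 library from each of 4 organs, namely the adrenal, testicle, pituitary and hypothalamus (32 libraries in 8 groups of 4). The 4 IVP calves (3208, 3209, 5833 and 5841), aged 98 to 103 days at collection, came from embryos produced in vitro. The 4 MOET calves, the controls, came from embryos made in vivo by ovarian superstimulation followed by artificial insemination. Of these, 3217, 3218 and 5932 were 102 to 104 days old and 3213 was 144 days old. Both kinds of embryo were transferred to recipient cows and the calves were then kept alike. The labels give no sire or dam for any calf, so parentage and embryo origin cannot be told apart.

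The hypothalamus and pituitary steer the testis and the adrenal cortex through releasing and stimulating hormones. In vitro production exposes the embryo to culture through its first cell divisions, and calves born after it are studied for lasting changes in gene use. The IDs come without symbols, and 0 of the 3 matched the reference gene table, so no name, place or function is given for them. In RNA from whole tissue, fewer cells that use a gene and less RNA per cell cannot be told apart.

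Of the 32 libraries, 5 stood apart from the rest, the 4 libraries of MOET 3213 and the adrenal library of IVP 5833. For each library, the log2 difference from the mean of the other 3 libraries of its group was taken over all IDs with more than 200 counts in each of the 4. In these 5 libraries the interquartile range of that difference was 0.00766 to 0.0223, while counting noise alone gives 0.0733 to 0.0831. In the other 27 libraries it was 0.116 to 0.782, above counting noise in each. The 5 columns thus lay closer to the average of their group than separately counted reads can. The labels and notes used here do not say how they were made. Adrenal IVP 5833 also had 0 counts for 25 IDs with at least 100 counts in each other IVP adrenal, and adrenal MOET 3213 had 0 for 11 such IDs, against 0 to 2 in the 27. Values below include these 5 near-mean libraries unless they are said to be left out. Library totals were 17357283 to 23380330 counts, and 3 counts, taken as the detection floor, are 0.173 CPM (counts per 1e6 counts) of the smallest total.

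**Figure D1:**
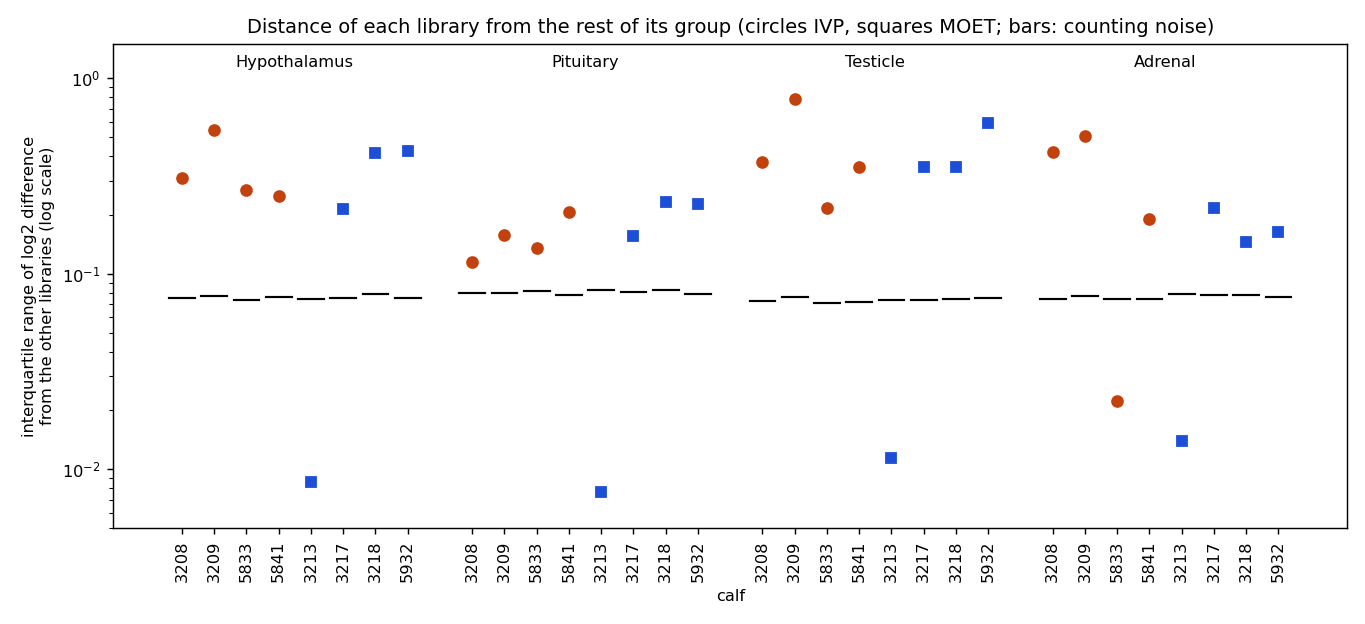
Interquartile range, over IDs with more than 200 counts, of the log2 difference between each library and the mean of the other libraries of its group (log axis), by tissue and calf. Circles are IVP and squares MOET libraries, and short bars show the range that counting noise alone gives. The 4 libraries of MOET 3213 and adrenal IVP 5833 lie at 0.0223 or less, below their bars, and the other 27 at 0.116 or more.

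ENSBTAG00000021565 was read at high level in every IVP library. In the hypothalamus the IVP counts were 697, 1215, 1073 and 621 (calves 3208, 3209, 5833 and 5841) and the MOET counts 2, 0, 1 and 0 (calves 3213, 3217, 3218 and 5932). In the pituitary, in the same calf order, they were 3615, 3574, 3845 and 4211 against 1, 0, 0 and 0. Each IVP library lay far above each MOET library in both tissues. In the testicle the counts were 814, 1145, 913 and 820 against 9, 7, 1 and 14. In the adrenal they were 20779, 22041, 5196 and 23963 against 1, 0, 0 and 0. The groups were again wide apart, and adrenal IVP 5833 stood well below the other IVP adrenals.

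The single count in the MOET pituitaries and the single count in the MOET adrenals both came from MOET 3213. Over the 12 MOET libraries of the other 3 calves, 8 had 0 counts of this gene. Without the near-mean libraries the pituitary sums were 15245 and 0 counts, which puts the IVP level at least 3692-fold higher against a floor of 3 counts over the group. The adrenal sums were then 66783 and 0, at least 25081-fold higher. The hypothalamic sums were 3606 and 1, a ratio of 2341 with a 95% counting interval of 420 to 92476. With MOET 3213 included it was 1059 (362 to 5139). Intervals and floors cover counting error only.

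The testicle was the tissue in which MOET calves gave more than stray counts. Of the 4 MOET testicles, 3 passed the floor of 3 counts, and the MOET level was 0.822% of the IVP level over the summed counts. Without MOET 3213 the sums were 3692 and 22, a ratio of 127 (95% counting interval 83.9 to 203). The remaining 12 MOET libraries, from the hypothalamus, pituitary and adrenal, had 0 to 2 counts each.

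**Figure D2:**
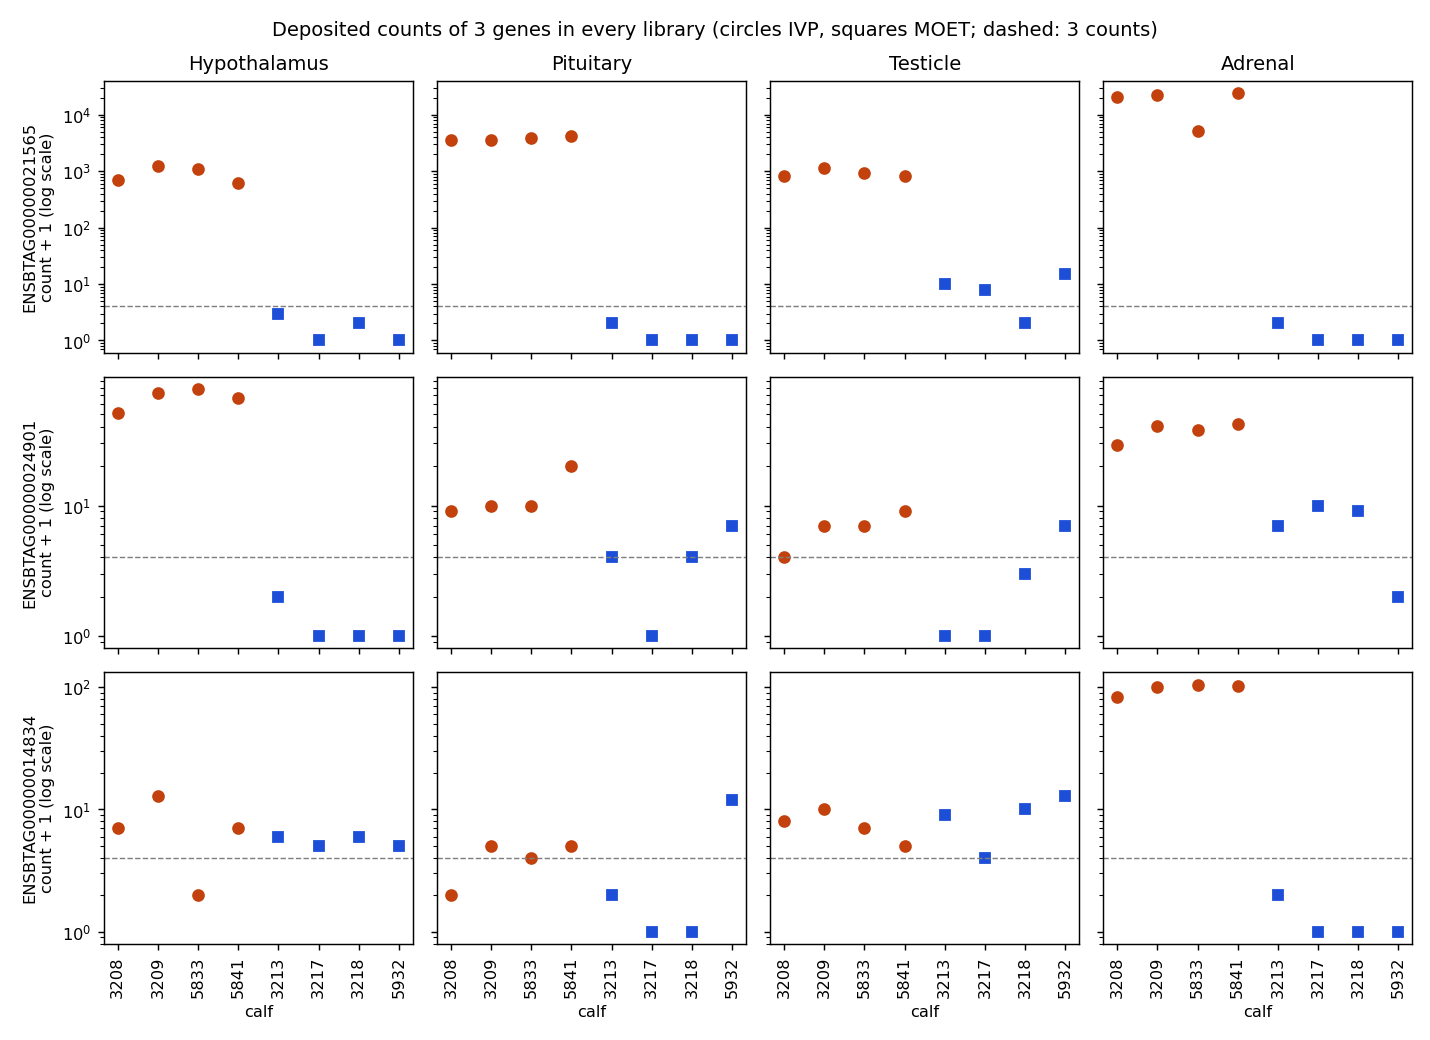
Deposited count plus 1 (log axis) of the 3 genes, 1 row per gene, in each calf and tissue. Circles are IVP and squares MOET libraries, and the dashed line marks 3 counts. ENSBTAG00000021565 splits by origin in all 4 tissues, ENSBTAG00000024901 most widely in the hypothalamus and ENSBTAG00000014834 only in the adrenal.

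Within IVP calves, ENSBTAG00000021565 was highest in the adrenal, then in the pituitary, and lower and about equal in testicle and hypothalamus. The gene was chosen by embryo origin, and its order of tissues was tested. The IVP counts tested are among those behind that choice and were known beforehand, a limit on the p values below. The level was 957 ± 474 CPM in the adrenal (SD, n = 4), or 1186 ± 147 CPM without IVP 5833 (n = 3). The pituitary had 186.3 ± 10.7 CPM (SD, n = 4). The testicle, at 41.3 ± 10.7 CPM, and the hypothalamus, at 41.3 ± 13.9 CPM, had the same mean to 3 digits (SD, n = 4 each). CPM here is relative to the library total scaled by TMM over all 32 libraries.

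The adrenal exceeded the pituitary by a log2 fold change of 2.46 (SE 0.38, edgeR quasi-likelihood test on 16 IVP libraries, Benjamini-Hochberg adjusted p = 3.28e-05), with the adrenal higher in 4 of 4 calves. In calf 5833 that difference was 1.36-fold, and in the other 3 calves it was 5.71-fold to 7.39-fold. Without adrenal IVP 5833 the log2 fold change was 2.77 (SE 0.24, edgeR adjusted p = 2.47e-07). The pituitary exceeded the testicle by 2.10 (SE 0.38, edgeR adjusted p = 1.54e-04) and the hypothalamus by 2.12 (SE 0.38, edgeR adjusted p = 1.73e-04), in 4 of 4 calves each. The adrenal exceeded the testicle by 4.55 (SE 0.42, edgeR adjusted p = 2.22e-07) and the hypothalamus by 4.57 (SE 0.42, edgeR adjusted p = 1.18e-07), or by 4.87 and 4.88 without adrenal IVP 5833.

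Testicle and hypothalamus were not told apart, with a log2 fold change of 0.02 (95% interval -0.76 to 0.80, edgeR adjusted p = 0.969). The testicle was higher in calves 3208 and 5841 and the hypothalamus in 3209 and 5833. That small value turned negative with DESeq2 size factors, without the low-count filter and with all 32 libraries in 1 fit. Differences between tissues are common in these libraries: the share of 17593 genes tested that were called in either direction was 75.0% for adrenal and pituitary, 69.2% for adrenal and testicle, 71.9% for adrenal and hypothalamus, 66.4% for pituitary and testicle, 63.7% for pituitary and hypothalamus and 70.5% for testicle and hypothalamus. In the direction of the first-named tissue the shares were 37.4%, 33.0%, 34.7%, 30.9%, 29.6% and 36.0% in the same order. Being called in 5 of 6 contrasts does not set this gene apart.

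**Figure D3:**
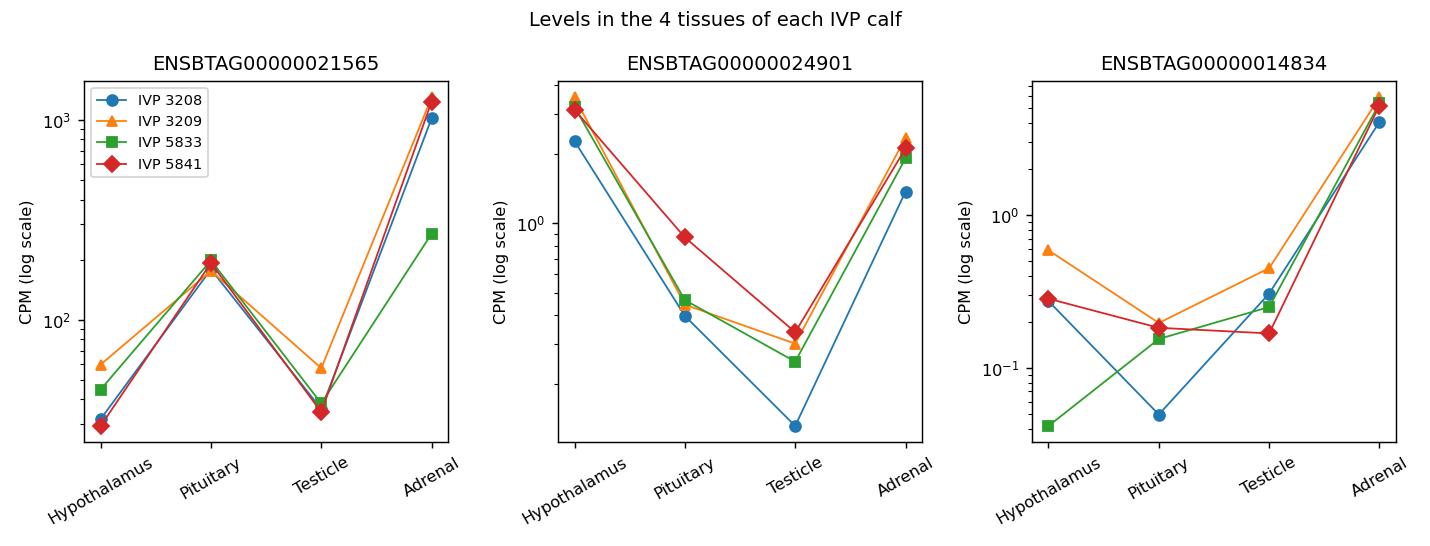
CPM (log axis) of the 3 genes in the 4 tissues of each IVP calf, 1 line per calf. ENSBTAG00000021565 runs close together in the pituitary, between 175.8 and 198.1 CPM, and calf 5833 drops to 269.6 CPM in the adrenal, where the others lie between 1020 and 1299 CPM.

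The 4 IVP calves were most alike for ENSBTAG00000021565 in the pituitary. Its SD there was 0.08 on the log2 CPM scale, and 68.4% of the 15807 IDs tested in the pituitary had a larger one. In the testicle the SD was 0.34, with 43.7% of IDs above it, and in the hypothalamus 0.47, with 20.3% above it. In the adrenal it was 1.08 with IVP 5833, with 2.77% of IDs above it, and 0.18 without. Adrenal IVP 5833 lay near the mean of the others for most IDs but not for this gene, so the 2.77% depends on that library. No such share was taken for the 0.18. Even in the pituitary the counts varied 12.4 times as much as counting noise gives (chi-square per degree of freedom), so calves differed there by more than counting noise.

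ENSBTAG00000024901 had its highest level in IVP hypothalami. Its counts there were 50, 72, 77 and 66 in IVP (calves 3208, 3209, 5833 and 5841) and 1, 0, 0 and 0 in MOET libraries (3213, 3217, 3218 and 5932). The only MOET count in this tissue was that of 3213, and without it the IVP level was at least 57.3-fold higher against a floor of 3 counts over the group. IVP and MOET hypothalami did not overlap, and every IVP library exceeded every MOET library for 4.78% of IDs tested in this tissue.

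In the adrenal ENSBTAG00000024901 was read in both origins. The IVP counts were 28, 40, 37 and 41 and the MOET counts 6, 9, 8 and 1, with no overlap and a ratio of 6.70 (95% counting interval 4.33 to 10.8), or 6.82 (4.12 to 11.9) without the near-mean libraries. In the pituitary the counts were 8, 9, 9 and 19 against 3, 0, 3 and 6, which is a ratio of 3.57 (1.86 to 7.41), or 3.63 (1.75 to 8.45) without MOET 3213. The groups lay side by side there, with no overlap and counts too low to pass the filter for testing. Of the IDs that were tested, 19.5% in adrenals and 13.4% in pituitaries had every IVP library above every MOET library.

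In the testicle the IVP counts of ENSBTAG00000024901 were 3, 6, 6 and 8 and the MOET counts 0, 0, 2 and 6. MOET 5932 equalled IVP 3209 and 5833 in raw counts, so the groups overlapped, and the ratio was 2.94 (95% counting interval 1.27 to 7.60). Without MOET 3213 it was 2.18 (0.942 to 5.64). These intervals cover counting error only, and the 4 MOET testicles varied by 4.24 times counting noise (chi-square per degree of freedom). A difference between origins in this tissue was not tested. Over the 3 tissues other than the hypothalamus, IVP libraries held 214 and MOET libraries 44 counts, a ratio of 4.97 (3.58 to 7.05) that was 4.24 (2.94 to 6.28) without the near-mean libraries.

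The level of ENSBTAG00000024901 in IVP calves was 3.03 ± 0.534 CPM in the hypothalamus, 1.94 ± 0.419 CPM in the adrenal, 0.543 ± 0.219 CPM in pituitaries and 0.254 ± 0.0891 CPM in testicles (SD, n = 4). Its ranges in hypothalamus and adrenal overlapped, and each of the other neighbours in that order had separate ranges. Because this gene and the next were noticed through single tissues, their order of tissues was not tested. The spread between IVP calves was near counting noise, at 2.03 times it in the hypothalamus and 1.75 times it in the adrenal (2.62 times without IVP 5833).

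ENSBTAG00000014834 was set apart by origin in the adrenal alone. The adrenal counts were 83, 100, 104 and 101 in IVP (3208, 3209, 5833 and 5841) and 1, 0, 0 and 0 in MOET calves (3213, 3217, 3218 and 5932). The 1 MOET count again belonged to 3213. Leaving out both near-mean adrenals left 284 and 0 counts, at least 106.7-fold higher in IVP against a floor of 3 counts over the group.

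Outside the adrenal the same gene was read at a low level in calves of both origins. In the hypothalamus its counts were 6, 12, 1 and 6 in IVP and 5, 4, 5 and 4 in MOET. In the testicle they were 7, 9, 6 and 4 against 8, 3, 9 and 12, and in the pituitary 1, 4, 3 and 4 against 1, 0, 0 and 11. The groups overlapped in all 3 tissues. Over these 12 libraries per origin the sums were 63 in IVP and 62 in MOET, a ratio of 0.968 with a 95% counting interval of 0.670 to 1.40. Without MOET 3213 the ratio was 0.934 (0.631 to 1.39). Both intervals cover counting error only, and calf 5932 alone held 27 of the 62 MOET counts. Spread was 8.48 times counting noise in MOET pituitaries and 3.85 times in IVP hypothalami. It was 0.176 to 1.90 times in the other groups of these tissues (chi-square per degree of freedom).

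The order of tissues for ENSBTAG00000014834 was not tested. In IVP calves the adrenal was highest, at 5.15 ± 0.770 CPM (SD, n = 4), which is 17.3 times the hypothalamic, 17.5 times the testicular and 35.3 times the pituitary mean. In MOET calves the testicle had 0.348 ± 0.169 CPM, the hypothalamus 0.236 ± 0.0478 CPM and the pituitary 0.144 ± 0.252 CPM, while 3 of 4 adrenals had 0 counts. These IVP adrenal counts varied by 2.22 times counting noise, or 3.19 times without IVP 5833.

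By calf, presence was uniform for the first gene and patchy for the others. ENSBTAG00000021565 passed 3 counts in 16 of 16 IVP and 3 of 16 MOET libraries, the 3 being testicles. ENSBTAG00000024901 passed it in 15 IVP and 5 MOET libraries, and ENSBTAG00000014834 in 13 IVP and 8 MOET libraries. Without the near-mean libraries these were 15 of 15 and 2 of 12, 14 of 15 and 4 of 12, and 12 of 15 and 6 of 12. Summed over 4 tissues, ENSBTAG00000021565 had 25905, 27975, 11027 and 29615 counts in IVP calves 3208, 3209, 5833 and 5841. MOET calves 3213, 3217, 3218 and 5932 had 13, 7, 2 and 14. The adrenal gave 20779, 22041, 5196 and 23963 of the IVP sums, and adrenal IVP 5833 was a near-mean library. In the other tissues calf 5833 was highest or second of the IVP calves by CPM. Each MOET calf had more than 3 counts of ENSBTAG00000024901 in at least 1 tissue, and the same was true of ENSBTAG00000014834.

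The 3 genes did not keep a common order of IVP calves. Calf 3209 was highest for all 3 in the adrenal and the hypothalamus by CPM, whereas in the pituitary the highest was 5833 for ENSBTAG00000021565, 5841 for ENSBTAG00000024901 and 3209 for ENSBTAG00000014834. In the testicle 3209 was highest for ENSBTAG00000021565 and ENSBTAG00000014834, and 5841 for ENSBTAG00000024901. Calf 3209 was thus highest for ENSBTAG00000014834 in all 4 tissues, and calf 3208 was lowest for ENSBTAG00000024901 in all 4. Only 4 calves carry these orders, so no correlation between the genes was tested.

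Adrenal IVP 5833 was low for ENSBTAG00000021565 and not for the others. This library had 5196 counts of it where the other 3 IVP adrenals averaged 22261, while ENSBTAG00000024901 had 37 where they averaged 36.3 and ENSBTAG00000014834 had 104 where they averaged 94.7. As a near-mean library, it lay close to the others' mean for most IDs, so those last values say little about the calf. Of 15437 IDs tested in the adrenal, 270 were over 2-fold lower in adrenal IVP 5833 than the log2 mean of the other IVP adrenals, among them 34 of 117 adrenal-enriched IDs (at least 8-fold higher mean level there than in each other tissue). The mean level of the 117 was 1.71 log2 CPM in this library and 3.12 to 3.46 log2 CPM in the other 7 adrenals. Their median log2 difference from the other IVP adrenals was 0.017 (quartiles -2.55 and 0.065), so only a part of the 117 lowered that mean. The part of these features in the low value of ENSBTAG00000021565 was not tested.

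How rare such a split is was counted over the whole table. An ID was taken as separated when its lowest IVP library had at least 10 times the CPM of the highest MOET library, the latter raised to 3 counts. In the hypothalamus 2 of 13353 IDs with enough counts met this (0.015%). The pituitary had 1 of 13461 (0.00743%), the testicle 1 of 13179 (0.00759%) and the adrenal 2 of 12593 (0.0159%). The 2 in the hypothalamus were ENSBTAG00000021565 and ENSBTAG00000024901, the 2 in the adrenal ENSBTAG00000021565 and ENSBTAG00000014834, and the others ENSBTAG00000021565. With the origins exchanged, 0 IDs were separated in each tissue. As origin chose the 3 genes and the rule was set with their counts known, these shares describe the table and are no evidence on the genes.

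**Figure D4:**
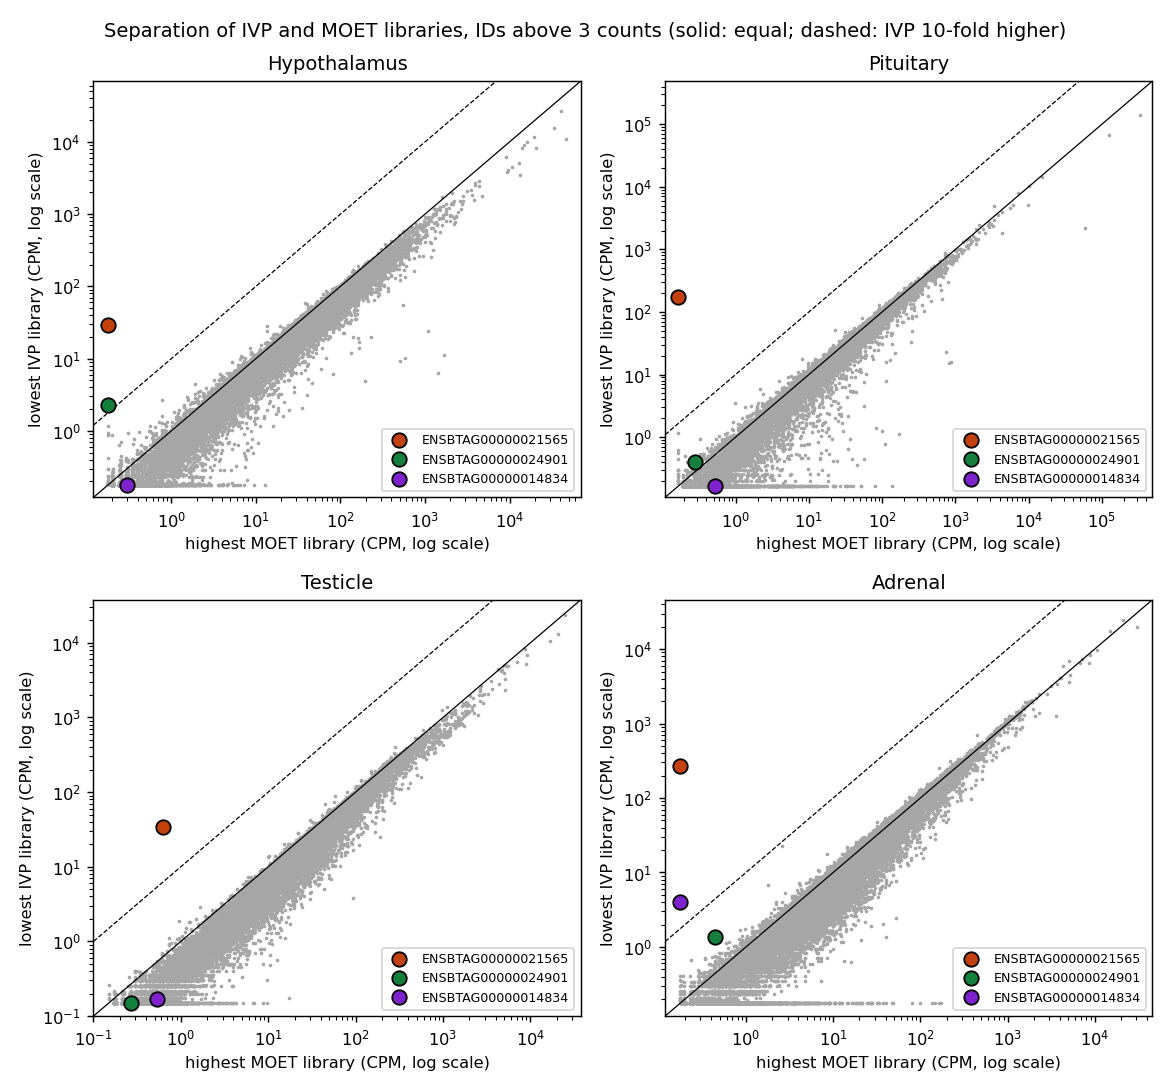
Lowest IVP library against highest MOET library for each ID above 3 counts in either (CPM, log axes, values below 3 counts drawn at 3 counts), 1 panel per tissue. The solid line marks equal values and the dashed line a 10-fold excess in IVP. ENSBTAG00000021565 lies above the dashed line in all 4 panels, ENSBTAG00000024901 in the hypothalamus and ENSBTAG00000014834 in the adrenal.

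A milder split was counted in the same way. Every IVP library exceeded every MOET library for 19.5% of IDs tested in adrenals, 13.4% in pituitaries, 4.78% in hypothalami and 2.2% in testicles. With the origins exchanged the shares were 19.6%, 9.48%, 5.15% and 4.9% in the same order. Leaving out the near-mean libraries left the IVP-above shares at 19.7%, 13.4%, 4.78% and 2.2%. A library close to the mean of its group can hardly break such a split, so these nearly unchanged shares are no sign of stability. The non-overlap of ENSBTAG00000024901 in adrenals, pituitaries and hypothalami is read against these shares, though in the pituitary it was not among the IDs tested. Without the near-mean libraries the 10-fold rule gave the same IDs in hypothalamus (2), pituitary (1) and testicle (1), and 3 IDs in the adrenal, 2 of them the same.

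The gene whose split was widest across tissues was ENSBTAG00000021565. Its gap, the log2 ratio of lowest IVP to highest MOET CPM with both raised to 3 counts, was 10.79 in adrenals, 10.07 in pituitaries, 7.35 in hypothalami and 5.78 in testicles. Its mean of 8.50 over the tissues ranked first of all IDs. ENSBTAG00000024901 ranked second with a mean of 1.24 and ENSBTAG00000014834 ranked 40 with 0.07, since its gap was positive in the adrenal only.

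The nearest IDs outside the 3 were split in 1 tissue each. ENSBTAG00000028443 had 25 to 33 counts in IVP hypothalami, at most 1 in those of MOET calves and 0 to 5 in the other tissues. ENSBTAG00000051217 had 24 to 35 counts in IVP pituitaries, 0 to 1 in those of MOET calves and 0 to 4 elsewhere. Their gaps of 6.57-fold and 7.22-fold fell short of the 10-fold rule, and ENSBTAG00000024901 passed it in the hypothalamus at 12.7-fold. All 3 had at most 1 MOET count per library in that tissue, so the floor of 3 counts limits each gap and the IVP level sets its size.

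Co-variation of ENSBTAG00000021565 with ENSBTAG00000024901 and with ENSBTAG00000014834 among IVP calves lay within the range of most other IDs. The pair ENSBTAG00000024901 and ENSBTAG00000014834 was not examined. After subtracting tissue means, Pearson's r of log2 CPM with ENSBTAG00000021565, over 16 IVP libraries from 4 calves, was 0.22 for ENSBTAG00000024901 and 0.14 for ENSBTAG00000014834. The median of 18241 IDs was -0.02, and 90% of IDs lay between -0.42 and 0.40. Without adrenal IVP 5833 the r values were 0.46 and 0.35, the median was -0.01 and 90% of IDs lay between -0.83 and 0.81. Both genes stayed inside that range with and without the library. The libraries of a calf share that calf and the counts of both genes are low, so the values are given as a description.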

How the data were processed

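Per the labels' protocols, poly(A)-selected, non-stranded libraries (RNA integrity above 7) were sequenced paired-end on a DNBSEQ instrument, with SOAPnuke read filtering. STAR 2.7, HTSeq and bosTau9 are named per the submitters' processing notes; the gene models and strand setting are not stated there. The deposited values are whole-number counts for 27607 Ensembl IDs (0 rows naming no gene, 0 columns of other series). Reads of overlapping genes on opposite strands, or of near-identical genes, cannot be told apart; whether the 3 genes have such partners was not tested.

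CPM used TMM factors over 32 libraries. Tissue contrasts used edgeR (filterByExpr, TMM, robust glmQLFit, glmQLFTest) on 16 IVP libraries, adjusted over genes within each of 6 contrasts. The SE is the fold change over the root of F. On simulated adrenal and pituitary counts of 17190 genes 77 of 100 simulated 2-fold changes and 100 of 100 simulated 4-fold changes were called, beside 9 false calls. The simulation gave all genes the same dispersion, no calf effect and few changed genes, so these rates need not hold for the real counts. Count ratios have exact binomial 95% intervals. The 4 tissues of a calf carry 1 animal number, so calf numbers pair libraries across tissues; the replicate block changed no call. Named beside the 3 genes are the 2 IDs with the largest mean gap; the IDs most alike by r are not named. The lists of cell type markers could not be used, since 0 IDs have a symbol. The 3 genes, the rules and the tissue-enriched IDs were chosen with earlier results of these data known, and the near-mean check was added after the data were seen. Versions were DESeq2 1.42.0, edgeR 4.0.16 and limma 3.58.1 in R 4.3.3, and Python 3.11.15.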

Additional observations from a re-analysis of the deposited data

Results flagged for a closer look

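Of 19 groups of 4 libraries with more than 3 counts in any library, 3 had 1 library far from the others. For independent values the rule flags about 1 in 20 groups. These groups share calves, and some hold a near-mean library or low counts, so the share flagged cannot be read against that rate. ENSBTAG00000021565 was at 57.2 CPM in testicle IVP 3209, above 34.4 to 38.1 CPM in the other IVP testicles. ENSBTAG00000024901 was at 0.868 CPM in pituitary IVP 5841, above 0.396 to 0.464 CPM in the other IVP pituitaries. ENSBTAG00000014834 was at 0.520 CPM in pituitary MOET 5932, from 11 counts, where the other MOET pituitaries had 0 to 1 count.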

How the results depend on the processing

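The 5 tissue contrasts of ENSBTAG00000021565 that passed kept direction and call under all alternatives run, among them the calf as a replicate block (adrenal over pituitary log2 fold change 2.37, edgeR adjusted p = 6.75e-05). Over these alternatives edgeR or DESeq2 adjusted p reached at most 0.00471 (pituitary over hypothalamus, without calf 3208). Leaving out 1 calf gave 2.22 to 2.80 for adrenal over pituitary. Testicle over hypothalamus was -0.0161 with DESeq2 size factors and -0.0155 in the DESeq2 Wald test, -0.0022 without the low-count filter, -0.0011 with all 32 libraries in 1 fit and -0.0245 to 0.0955 with 1 calf left out, never passing. A 5-fold gap gave 4 separated IDs in the hypothalamus and 2 in the pituitary, and a 20-fold gap gave 1 in the hypothalamus. With 1 calf left out, 1 to 2 IDs were separated in the pituitary (2 without IVP 5833) and 1 to 2 in the testicle (2 without IVP 3209), and 0 to 1 were higher in MOET pituitaries (1 without MOET 3218); with fewer libraries the rule is easier to meet. At 1 or more counts, 8 MOET libraries held ENSBTAG00000021565 and 10 ENSBTAG00000024901. At 10 or more counts, 1 MOET library held the first gene, 9 IVP and 0 MOET libraries the second and 5 IVP and 2 MOET libraries ENSBTAG00000014834. The near-mean libraries, left out after the data were seen, leave 3 MOET calves and 3 IVP adrenals behind the origin values.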
